A study of Mus musculus with 18 samples.

Results

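The genes of the translation initiation and elongation factors were followed in mouse hearts through pressure overload and a later phase with the kinase Akt switched on. Members were all probe sets of the Affymetrix 430A and 430B chips whose single gene symbol in the platform annotation starts with Eif or Eef followed by a digit, with Eif4ebp1 and Eif2s3y left out. The rule used names and no measured value. It found 151 probe sets of 56 genes among the 45265 probe sets of the 2 chips, 114 of them on 430A and 37 on 430B. A probe set is a group of short probes that report 1 signal, and a gene can have several. Of the 151, 123 probe sets of 54 genes were past the filter on low signal, which kept, on each chip, the brightest 60% by mean over the 9 hearts. The other 28 lay below it and were not tested, and Eif4a3 and Eef2kmt had no probe set past it. A further 8 probe sets carry several symbols, one of which matches the pattern, and were not members.

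The 9 hearts came from male mice with the Tet-myrAkt1 and αMHC-tTA transgenes. The first codes for myrAkt1, an activated form of Akt1, and the second for a tetracycline-controlled activator made in heart muscle cells, so that only those cells are meant to switch Akt on. All 3 groups carried both transgenes. The first group of 3 hearts was taken before AAC, the operation used to impose pressure overload, at an age label of 8 weeks. The second group of 3 was taken 4 weeks after AAC at 12 weeks of age, and the third group of 3 was taken 6 weeks after AAC with Akt on. For the third group the titles give 3 weeks of Akt activation and the descriptions 2, and its label of 12 weeks of age is the same as for hearts of the second group. The description of replicate 3 of the 4-week group carries the number 1. No group of later age without AAC, and none at 6 weeks without Akt, was analysed here, so AAC cannot be told apart from age in the comparisons with hearts before AAC, and Akt cannot be told apart from the later time in the comparison with the 4-week hearts. Nothing in the labels says whether each sample is 1 animal, so p-values measure the spread between these samples.

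Initiation begins when eIF4E binds the cap of an mRNA and, with the scaffold eIF4G and the helicase eIF4A, opens its leader. The complex eIF2 brings the initiator tRNA to the small ribosomal subunit, eIF3 holds the parts together, and eIF5 and eIF5B act at the start codon and at the joining of the large subunit. The elongation factors eEF1A and eEF2 then deliver each aminoacyl-tRNA and move the ribosome along the message. In heart muscle this machinery is known as a point through which Akt and mTOR set the rate of protein synthesis during growth, largely by phosphorylation of proteins, which an mRNA array does not measure.

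All values below are log2(signal + 32) of the deposited MAS5 signal. Differences are on that scale, which understates the change of low signals, and SE is the standard error from limma. Adjusted p-values are from limma with Benjamini-Hochberg adjustment over all 27083 probe sets past the filter, two-sided, and a probe set is said to have risen or fallen where that value is under 0.05. With 3 arrays in a group, precision is limited by their number. Levels of different probe sets are not compared with each other, since each has its own probes.

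A rise of Akt1 signal with Akt on could be seen in part of its probe sets. Of the 3 Akt1 probe sets past the filter, 1425711_a_at stood at 9.09 ± 0.42 before AAC, 9.62 ± 0.34 at 4 weeks and 11.98 ± 0.66 with Akt on (SD, n = 3 each), a rise of 2.36 over the 4-week hearts (SE 0.31, adjusted p = 0.00312). The others, 1416657_at and 1440950_at, differed from the 4-week hearts by 0.01 and -0.02 (adjusted p = 0.989 and 0.975). From hearts before AAC they differed by -0.40 and 0.08, which did not pass (adjusted p = 0.164 and 0.83). Which of these probe sets read the transgene was not tested. All 7 heart muscle marker genes were past the filter and none of 4 skeletal muscle genes was. Summed signals of the 6 atrial marker genes spanned 5308 to 92464 within the group before AAC, 6422 to 70408 in the 4-week group and 6846 to 70625 in the group with Akt on, so hearts of each group differed many-fold in atrial RNA. Replicate arrays of a group correlated across probe sets at 0.9501 to 0.9755 on 430A and 0.8813 to 0.9394 on 430B. The control signal at the 3′ end over that at the 5′ end, a measure of RNA integrity, was higher before AAC than later on chip 430A, at 1.49 to 2.04 against 1.14 to 1.21 at 4 weeks and 1.04 to 1.22 with Akt on for β-actin, and at 1.07 to 1.32 against 0.828 to 0.888 and 0.809 to 0.93 for Gapdh.

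Hearts after 4 weeks of pressure overload had higher signals of single probe sets of some initiation factors, and a lower signal of Eef2. By the test, 1 probe set each of Eif5, Eif3m, Eif2s2, Eif4g2, Eif3c and Eif4e rose. In 5 of the 6 called genes with more than 1 tested probe set, the probe sets lay on both sides of 0. Of the 123 probe sets tested, 9 passed in the comparison of 4-week hearts with hearts before AAC, 8 higher and 1 lower, against 4.43% of all probe sets tested (2.75% higher and 1.68% lower). Without adjustment, limma's p was under 0.05 for 22 higher and 4 lower, 26 in all, against 21.7% of all probe sets. The 3 hearts of the 4-week group all lay above those before AAC for 35 of the 123 (28.5%), against 13.1% of all probe sets, and all below for 8 (6.5%), against 16.2%. The median difference of the 123 was 0.09, beside -0.04 over all probe sets tested, and 77 of 123 were above 0. The median became 0.13 and 0.05 without replicates 1 and 2 of the hearts before AAC. These counts move with the 3′ to 5′ control ratios given above, and the part of RNA integrity in them was not tested. Markers of several cell types were also lower at 4 weeks. The summed signals on 430A were 264325 to 281887 against 316734 to 359673 before AAC for heart muscle cells, 6231 to 8310 against 9767 to 10431 for endothelium and 15791 to 19921 against 21865 to 22269 for smooth muscle and pericytes. By the test 1 of 14 heart muscle probe sets rose and 1 fell, and 1 of 7 endothelial ones fell and none of 8 smooth muscle ones passed. Their part in the members' differences was not tested. In whole-heart RNA, fewer cells of a type and less RNA per cell cannot be told apart. The count of 9 became 2, 1 and 1 without replicates 1, 2 and 3 of the hearts before AAC, and 5, 1 and 3 without replicates 1, 2 and 3 of the 4-week hearts. The share of all probe sets that passed fell too, to 1.38%, 0.709% and 0.436%, and to 1.16%, 0.495% and 3.31%, in the same order. In 12 settings that leave out no heart, Eif5 and Eif3m kept their calls throughout, Eif2s2 lost its call in 2 and the other 6 in 4 to 6 (adjusted p up to 0.0887, and for Eef2 up to 0.324).

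With Akt on, hardly any of these genes differed from the 4-week hearts by the test. In this comparison 2 of 123 probe sets passed, of Eif4a2 and Eif4b, both lower, against 2.54% of all probe sets tested (1.08% higher and 1.46% lower). No probe set rose by limma's adjusted p, while 11 higher and 13 lower had an unadjusted p under 0.05, against 17% of all probe sets. The hearts with Akt on all lay above the 4-week hearts for 13 probe sets (10.6%), against 10.8% of all, and all below for 17 (13.8%), against 9.78%. The median difference was -0.01, beside 0.02 over all probe sets, and ranged between -0.04 and 0.02 when 1 heart was left out, the lowest without replicate 2 and the highest without replicate 1 with Akt on. Both calls rest on particular hearts: the count was 0 without any 1 of the hearts before AAC, of the 4-week hearts or replicate 2 of the hearts with Akt on, and 1 without replicate 1 or 3 of those, while the share of all probe sets lay between 0.882% and 2.37%. Each call was also lost in 5 of 12 settings that leave out no heart (adjusted p up to 0.102 and 0.108). Part of the fibroblast markers moved with this comparison: 6 of 14 probe sets of the 7 marker genes rose, and 13 of 14 were above 0. The 6 were of 4 genes, Col1a1, Col1a2, Col3a1 and Postn. No probe set of Dcn (-0.05 and 0.09), Lum (0.22) or Pdgfra (0.00 to 0.53) passed. The summed signal of the 7 genes on 430A was 43512 to 69614 with Akt on and 26890 to 43054 at 4 weeks. The part of these markers in the 2 falls was not tested.

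Set against hearts before AAC, the hearts with Akt on had the most calls, among the members as among all probe sets tested. In this comparison 20 of 123 probe sets passed, 15 higher and 5 lower, against 13.4% of all probe sets tested (6.86% higher and 6.51% lower). Without adjustment, 23 higher and 13 lower had a limma p under 0.05, against 28% of all. Groups lay apart with Akt on higher for 24 probe sets (19.5%), against 15.7% of all, and lower for 12 (9.76%), against 16.4%. The median difference was 0.07, beside -0.01 over all probe sets, and 81 of 123 were above 0. The median became 0.11 and 0.04 without replicates 1 and 2 of the hearts before AAC. This comparison shares its control hearts with the first one, and RNA integrity moves with it in the same way. Cell type markers moved too: 6 of 14 fibroblast probe sets rose, while 6 of 14 of heart muscle cells, 3 of 7 of endothelium and 1 of 8 of smooth muscle fell. The fibroblast rises were again of Col1a1, Col1a2, Col3a1 and Postn. No probe set of Dcn (-0.37 and 0.16), Lum (0.49) or Pdgfra (-0.04 to 0.79) passed. The summed signals with Akt on were 43512 to 69614 against 35900 to 40835 before AAC for fibroblasts, 230236 to 303250 against 316734 to 359673 for heart muscle cells, 6491 to 6772 against 9767 to 10431 for endothelium and 14398 to 16170 against 21865 to 22269 for smooth muscle. Their part in the members' calls was not tested. The count was 11 and 8 without replicates 2 and 3 of the hearts before AAC, and 10 and 13 without replicates 2 and 3 of the hearts with Akt on, with 7.3%, 6.26%, 8.32% and 7.81% of all probe sets passing in those settings. Of the 20 calls, 7 were kept without any 1 heart, and 13 were kept in all 12 settings that leave out no heart.

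**Figure D1:**
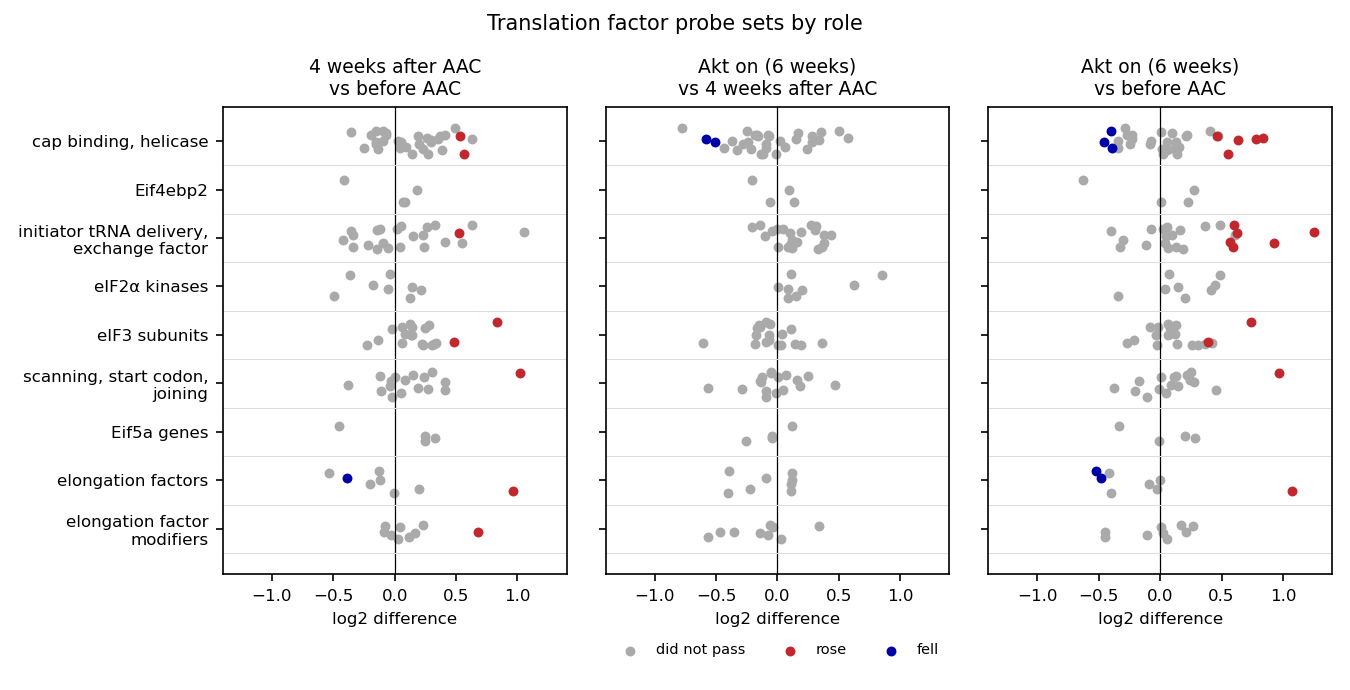
Log2 difference of each of the 123 probe sets past the filter, 1 point each, by role (rows) and comparison (panels); red points rose and blue points fell by limma's adjusted p, and the vertical scatter within a row has no meaning. In the left panel 8 points are red and 1 is blue, in the middle panel 2 are blue, and in the right panel 15 are red and 5 are blue, 6 of the red ones in the row of initiator tRNA delivery and exchange factor.

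Because mTOR signalling is known to act on messages that begin with a C and a run of pyrimidines, and because the MYC family of transcription factors is known to bind the letters CACGTG, the start sites of the members were read from RefSeq's promoter table (GRCm38.p6). Of the 56 genes 46 had an entry, among them 15 of the 19 genes with a call in any comparison. The first set covers 5 bases before to 25 bases from the annotated start, on the gene's strand, for a chosen part of the genes discussed below. Capitals mark a run of at least 7 bases that starts with C and holds only C or T, searched on the transcript strand. Eef1a1 is shown although it had no call. Not all called genes are shown: among those left out, Eif2b1 and Eif4a1 held no such run and Eef1e1 did.
Eef1a1, chr9:78481700-78481729, minus strand: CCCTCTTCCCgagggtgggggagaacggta
Eef2, chr10:81176626-81176655, plus strand: cgggcgttgacgtcagcggtCTCTTCCgcc
Eif4b, chr15:102073768-102073797, plus strand: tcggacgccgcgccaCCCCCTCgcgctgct
Eif2s3x, chrX:94212627-94212656, minus strand: ttttCCTTTTCTCTCCgagcaagatggctg
Eif4a2, chr16:23107463-23107492, plus strand: cccgtaggagcagggcggccgaggagcgcg
Eif5, chr12:111538096-111538125, plus strand: tgcatgcgagccaatgacaagagaagttgg
Eif2s2, chr2:154892882-154892911, minus strand: tggctttactgtacgcctgcgctttggcga
Eif3m, chr2:105017003-105017032, minus strand: ggcgtgtttctggatcggagcgtcttccgc
Such a run stood in 13 of the 46 member genes (28.3%) and in 14.1% of the 27025 genes of the table. Among the genes with a call it stood in 4 of 15 (26.7%), which were 2 of 11 called higher and 2 of 4 called lower. An annotated start can lie some bases away from the one used in heart, and a run is a match of letters and no measurement.

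The second set shows 30 bases around CACGTG, in capitals, where a called gene held it between 250 bases before and 50 after its start. The letters read the same on both strands.
Eef2, chr10:81176576-81176605, plus strand: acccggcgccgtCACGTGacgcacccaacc
Eif4a1, chr11:69672595-69672624, minus strand: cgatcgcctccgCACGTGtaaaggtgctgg
Eif4e, chr3:138527028-138527057, plus strand: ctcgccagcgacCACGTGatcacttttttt
Eif4e, chr3:138527192-138527221, plus strand: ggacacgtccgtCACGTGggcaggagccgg
Eif4h, chr5:134639488-134639517, minus strand: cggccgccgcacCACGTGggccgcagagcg
Eif4e held it at both places shown. CACGTG stood in 12 of 46 member genes (26.1%), in 8.09% of all genes of the table and in 4 of the 15 called genes. Of those 4, Eif4a1 and Eif4e had a probe set that rose and Eef2 and Eif4h one that fell.

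Among the cap-binding and helicase genes, 31 probe sets of 10 genes were tested, and 2 rose at 4 weeks. Eif4e codes for the cap-binding protein itself. Its probe set 1450908_at stood at 10.82, 11.00 and 10.84 in replicates 1, 2 and 3 before AAC, at 11.18, 11.52 and 11.55 at 4 weeks, and at 11.27, 11.32 and 11.46 with Akt on. All 6 later hearts lay above the 3 earlier ones, and the later groups overlapped. The rise was 0.53 at 4 weeks (SE 0.13, adjusted p = 0.0432) and 0.47 with Akt on (SE 0.13, adjusted p = 0.0366). Under quantile normalization the 4-week difference was 0.48 and did not pass (adjusted p = 0.0655), while the later one passed (0.0363). The other 3 probe sets of Eif4e did not pass in either comparison, with differences of 0.19 to 0.29 at 4 weeks and 0.01 to 0.47 with Akt on. Both calls were lost without any 1 of the hearts before AAC, at adjusted p of up to 0.149 and 0.125; the first also without replicate 2 or 3 of the 4-week hearts or replicate 2 with Akt on, and the second without replicate 2 or 3 with Akt on.

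Eif4g2 codes for a relative of the eIF4G scaffold that lacks the binding site for eIF4E. Its probe set 1415863_at was at 11.35, 11.10 and 11.24 before AAC, at 11.91, 11.63 and 11.84 at 4 weeks, and at 11.58, 11.85 and 11.93 with Akt on. Again every later heart was above every earlier one. It rose by 0.56 in both comparisons with the hearts before AAC (SE 0.13 each, adjusted p = 0.0364 and 0.0178). The other 3 probe sets differed by -0.15 to 0.14 at 4 weeks and by 0.03 to 0.16 with Akt on, and none passed. The 4-week call was lost without any 1 of the hearts before AAC or at 4 weeks (adjusted p up to 0.13), and the later call without replicate 2 or 3 of either of its groups (up to 0.0746).

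The helicase genes Eif4a1 and Eif4a2 had calls in different comparisons. For Eif4a1, probe set 1430980_a_at was at 10.86, 10.43 and 10.18 before AAC, at 10.99, 11.19 and 11.16 at 4 weeks, and at 11.13, 11.39 and 11.27 with Akt on. It rose by 0.78 with Akt on against before AAC (SE 0.16, adjusted p = 0.0109), and its difference at 4 weeks was 0.63 (adjusted p = 0.0526; 0.0349 without replicate 1 before AAC and 0.0472 without replicate 1 with Akt on). Without replicate 3 before AAC the adjusted p of the rise was 0.0514. The other 2 probe sets of Eif4a1 were at 0.21 and 0.05 in the same comparison, and did not pass. Eif4a2, measured by 1450934_at alone, was at 12.32, 12.46 and 12.39 before AAC, at 12.74, 12.83 and 12.66 at 4 weeks, and at 11.93, 12.16 and 12.39 with Akt on. The 4-week hearts were above all other hearts for this probe set. It fell by 0.58 between the 4-week hearts and those with Akt on (SE 0.13, adjusted p = 0.0355), after a difference of 0.35 at 4 weeks that did not pass (adjusted p = 0.129). With Akt on its difference from hearts before AAC was -0.23 (adjusted p = 0.266). The fall kept its call without replicate 3 of the hearts with Akt on and lost it without any other single heart (adjusted p up to 0.112).

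Eif4b, whose protein stimulates the helicase and is a known target of kinases below Akt and mTOR, was read by 3 probe sets. Probe set 1426378_at was at 10.91, 11.04 and 10.94 before AAC, at 11.03, 10.97 and 11.02 at 4 weeks, and at 10.56, 10.42 and 10.52 with Akt on. The first 2 groups overlapped, and the hearts with Akt on all lay below them. It fell by 0.51 against the 4-week hearts (SE 0.11, adjusted p = 0.036) and by 0.46 against hearts before AAC (SE 0.11, adjusted p = 0.0186). Quantile normalization gave -0.47 against 4 weeks, which did not pass (adjusted p = 0.0512), and -0.48 against before AAC, which did (0.0153). A second probe set, 1426380_at, fell by 0.39 against hearts before AAC (SE 0.12, adjusted p = 0.0441) and differed by -0.44 from 4 weeks (adjusted p = 0.0724). The third, 1426379_at, had the largest negative difference of any member between the hearts with Akt on and at 4 weeks, -0.77 (SE 0.25, adjusted p = 0.127), where replicate 1 with Akt on stood at 8.33 and the other 2 at 9.41 and 9.43. Without that replicate its difference of 0.49 at 4 weeks passed (adjusted p = 0.0472). All 3 probe sets lay below 0 in both comparisons with Akt on, and for each of them the groups with Akt on and at 4 weeks did not overlap. The fall of 1426378_at against 4 weeks was kept without replicate 1 with Akt on and lost without any other single heart (adjusted p up to 0.107); against hearts before AAC it was lost without replicate 2 or 3 of those or replicate 2 with Akt on (up to 0.0764). That of 1426380_at was kept only without replicate 3 of the 4-week hearts (up to 0.145).

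Of the other genes in this role, Eif4e2, a second cap-binding protein known for holding messages back from translation, had 2 of 5 probe sets that rose with Akt on against before AAC. Probe set 1435803_a_at was at 7.26, 6.89 and 6.98 before AAC, at 7.44, 7.20 and 7.27 at 4 weeks, and at 8.03, 7.92 and 7.69 with Akt on, where all 3 hearts were above the other 6. Its rise was 0.84 (SE 0.20, adjusted p = 0.0179), and it was lost without replicate 2 or 3 before AAC or replicate 2 with Akt on (up to 0.0633). For 1421985_a_at the rise was 0.64 (SE 0.19, adjusted p = 0.0413) although the groups touched at 9.59. Among single hearts, only leaving out replicate 3 at 4 weeks or replicate 1 with Akt on kept the call (up to 0.14). Under quantile normalization its difference was 0.59 and did not pass (adjusted p = 0.0604). The other 3 probe sets of the gene were between 0.09 and 0.41. Eif4h, a partner of the helicase, fell in 1 of its 5 probe sets, 1438554_x_at, by 0.40 (SE 0.12, adjusted p = 0.0411), with 11.82, 11.55 and 11.82 before AAC and 11.30, 11.43 and 11.26 with Akt on. The ending x marks probes that can also match other transcripts, and the call was kept only without replicate 2 before AAC or replicate 3 at 4 weeks (up to 0.159). No probe set of Eif4e3, Eif4enif1 or Eif4g3 passed in any comparison.

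Eif4ebp2 codes for a protein that binds eIF4E and keeps it from the scaffold until it is phosphorylated. None of its 4 tested probe sets passed in any comparison, and no difference of theirs had an unadjusted p under 0.05 except that of 1437733_at with Akt on against before AAC. That probe set was at 9.21, 9.35 and 9.16 before AAC, at 8.89, 9.24 and 8.35 at 4 weeks, and at 8.44, 8.30 and 9.11 with Akt on. Its difference of -0.63 was the most negative of all 123 in that comparison (SE 0.24, adjusted p = 0.113; -0.87 and 0.0426 without replicate 3 with Akt on), while the other 3 probe sets of the gene lay between 0.01 and 0.28.

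**Figure D2:**
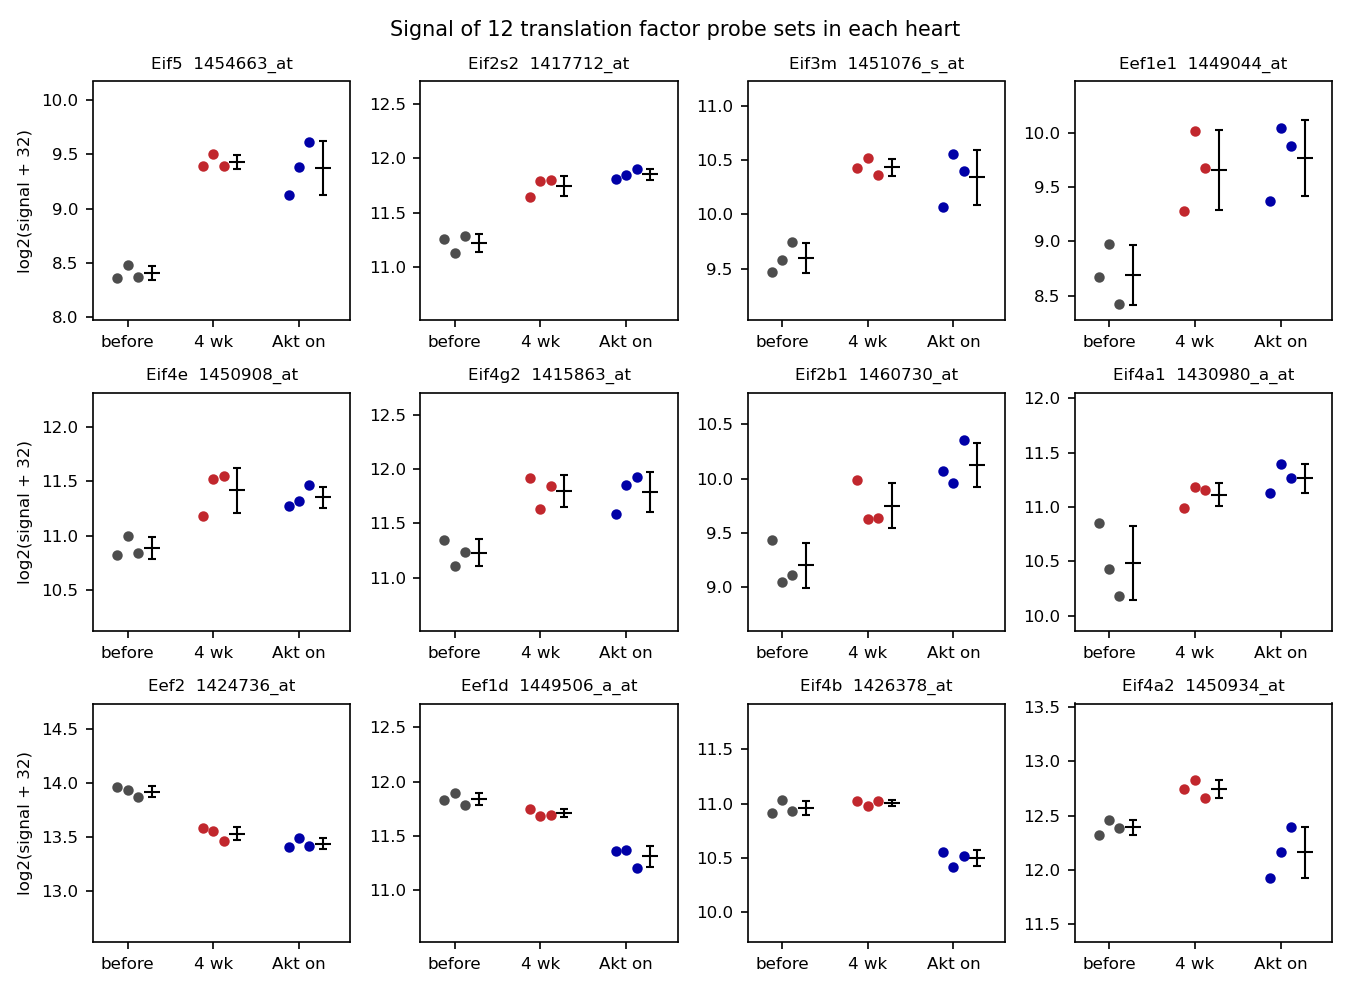
Log2(signal + 32) of 12 probe sets in each heart, 1 point per heart, with the group mean ± SD (n = 3) as a cross and bar to its right; every panel spans the same number of log2 units on a linear axis. Eif5, Eif3m and Eif2s2 1417712_at show 3 low hearts before AAC and 6 higher later hearts, Eef2 the reverse, and Eif4b 1426378_at is low only in the hearts with Akt on, at 10.42 to 10.56.

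Genes for delivery of the initiator tRNA and for the exchange factor that reloads eIF2 gave 6 of the 15 rises with Akt on against before AAC. Here 23 probe sets of 9 genes were tested, and none fell in any comparison. With Akt on all 3 hearts lay above those before AAC for 10 of the 23 and below for 1, against 15.7% and 16.4% of all probe sets, and rises made up 6.86% of all probe sets. Eif2s2 codes for the β subunit of eIF2. Its probe set 1417712_at was at 11.26, 11.13 and 11.29 before AAC, at 11.64, 11.80 and 11.81 at 4 weeks, and at 11.81, 11.85 and 11.90 with Akt on. The 3 groups lay one above the other, the later 2 close together. It rose by 0.52 at 4 weeks (SE 0.11, adjusted p = 0.0254) and by 0.63 with Akt on (SE 0.11, adjusted p = 0.00436). The first call was lost without any 1 of the hearts before AAC or replicate 2 or 3 at 4 weeks (up to 0.0993), and the second was kept without any 1 heart. A second probe set, 1456617_a_at, rose by 0.60 with Akt on (SE 0.13, adjusted p = 0.0112; 0.0515 without replicate 2 before AAC). The other 3 of the gene were at -0.07, 0.04 and 0.61 in that comparison, and the last did not pass (adjusted p = 0.051).

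Eif2s3x, the X-linked gene of the γ subunit, had the largest difference of any member in both comparisons with hearts before AAC. Probe set 1421895_at was at 7.50, 6.95 and 6.98 before AAC, at 8.48, 8.13 and 7.98 at 4 weeks, and at 7.73, 8.68 and 8.77 with Akt on. The later hearts were all above the earlier ones, with replicate 1 with Akt on nearest to them. It rose 2.38-fold with Akt on (1.25, SE 0.28, adjusted p = 0.0128), while the difference of 1.06 at 4 weeks did not pass (SE 0.28, adjusted p = 0.052; 0.0153 without replicate 1 with Akt on). The rise was lost without replicate 2 or 3 of either group (up to 0.0555). The other 2 probe sets of the gene, 1423744_x_at and 1451090_a_at, each lay at 0.05 in the same comparison.

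The exchange factor eIF2B has 5 subunits, coded by Eif2b1 to Eif2b5. Eif2b1 was at 9.44, 9.05 and 9.12 before AAC, at 9.99, 9.63 and 9.64 at 4 weeks, and at 10.07, 9.96 and 10.36 with Akt on. It rose 1.90-fold with Akt on against before AAC (0.93, SE 0.16, adjusted p = 0.00484), a call kept without any 1 heart, and its differences of 0.55 at 4 weeks and 0.38 with Akt on against 4 weeks did not pass (adjusted p = 0.0776 and 0.268). Eif2b3, on chip 430B, was at 8.62, 8.67 and 8.45 before AAC, at 8.87, 9.01 and 9.09 at 4 weeks, and at 8.92, 9.39 and 9.13 with Akt on. Its rise of 0.57 in the last comparison (SE 0.15, adjusted p = 0.0303) was lost without any 1 of the hearts before AAC or replicate 2 or 3 with Akt on (up to 0.124). The remaining subunits did not pass. The catalytic subunit gene Eif2b5 differed by -0.11 (1433886_at) and 0.16 (1445908_at) with Akt on, the 3 probe sets of Eif2b2 by 0.06 to 0.18, and Eif2b4 by -0.40 with groups that did not overlap (adjusted p = 0.14).

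Eif2d codes for a factor that can place a tRNA on the ribosome without eIF2. Probe set 1436724_a_at was at 8.87, 8.79 and 8.72 before AAC, at 9.28, 8.78 and 9.03 at 4 weeks, and at 9.36, 9.41 and 9.40 with Akt on. The hearts with Akt on were within 0.05 of each other and above all others, and the rise over hearts before AAC was 0.60 (SE 0.15, adjusted p = 0.0212). It was lost without replicate 2 or 3 of either group (up to 0.085). The other 4 probe sets lay between -0.33 and 0.37. Eif2a, which despite its name is not a subunit of eIF2, had 1 probe set at 0.49 and 1 at -0.31, neither of which passed.

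The 4 kinases that phosphorylate eIF2 and so hold back initiation, Eif2ak1 to Eif2ak4, had no call in any comparison over 8 probe sets. Without adjustment, limma's p was under 0.05 for 1 lower probe set at 4 weeks, for 2 higher with Akt on against 4 weeks and for 1 higher with Akt on against before AAC. All 8 were above 0 with Akt on against 4 weeks, with a median of 0.13, or 0.06 under quantile normalization, where the lowest was Eif2ak1 1436006_at at 0.00079. The largest difference of any member in that direction was that of Eif2ak2, the kinase activated by double-stranded RNA. Its probe set 1422006_at was at 7.56, 7.66 and 6.83 before AAC, at 6.45, 7.21 and 7.29 at 4 weeks, and at 7.71, 7.89 and 7.91 with Akt on. Its probe set 1422005_at was at 7.61, 7.91 and 7.34, then at 7.49, 7.35 and 7.49, then at 8.14, 8.24 and 7.83. In both, the 3 hearts with Akt on were above the 3 at 4 weeks, with differences of 0.85 (SE 0.28, adjusted p = 0.143) and 0.62 (SE 0.20, adjusted p = 0.127) that did not pass. Eif2ak3, the kinase of the endoplasmic reticulum, differed by -0.49 at 4 weeks (adjusted p = 0.167) with groups that did not overlap. Eif2ak1, by 3 probe sets, and Eif2ak4, by 1, lay between -0.05 and 0.20 in all 3 comparisons.

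Of the eIF3 subunits, 19 probe sets of 11 genes were tested. At 4 weeks 16 of the 19 were above 0, with a median of 0.14, and 2 rose. Eif3m was at 9.47, 9.58 and 9.74 before AAC, at 10.42, 10.52 and 10.36 at 4 weeks, and at 10.06, 10.55 and 10.40 with Akt on. It rose 1.79-fold at 4 weeks (0.84, SE 0.15, adjusted p = 0.0157) and 1.67-fold with Akt on against before AAC (0.74, SE 0.15, adjusted p = 0.00811), with no overlap of either group with the hearts before AAC. The later call was kept without any 1 heart, and the 4-week call was lost without any 1 of the hearts before AAC or replicate 2 at 4 weeks (up to 0.0696). Its probe set 1451076_s_at carries the ending for probes shared by more than 1 transcript. Eif3c, a core subunit, had 1 of 4 probe sets that rose: 1415858_at was at 10.52, 10.56 and 10.56 before AAC, at 11.12, 11.05 and 10.91 at 4 weeks, and at 10.91, 10.99 and 10.90 with Akt on. The rises were 0.48 (SE 0.11, adjusted p = 0.0364) and 0.39 (SE 0.11, adjusted p = 0.04). Under quantile normalization they were 0.41, which did not pass (adjusted p = 0.0635), and 0.37, which did (0.0494). The first was lost without any 1 of the hearts before AAC or replicate 1 or 2 at 4 weeks (up to 0.116), and the second was kept only without replicate 1 or 3 at 4 weeks (up to 0.115). Eif3a, the largest subunit, had 3 probe sets at 0.14 to 0.32 at 4 weeks and -0.03 to 0.13 with Akt on against before AAC, and none passed. In the remaining 8 genes of the complex no probe set passed in any comparison.

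For scanning, start codon recognition and subunit joining, 17 probe sets of 7 genes were tested, and 1 probe set of Eif5 gave both calls. Eif5 codes for the protein that makes eIF2 split its bound GTP at the start codon. Probe set 1454663_at was at 8.37, 8.48 and 8.37 before AAC, at 9.39, 9.51 and 9.39 at 4 weeks, and at 9.12, 9.39 and 9.62 with Akt on. For this probe set every later heart lay above all hearts before AAC, and the later groups overlapped. It rose 2.03-fold at 4 weeks (1.02, SE 0.15, adjusted p = 0.00834) and 1.96-fold with Akt on against before AAC (0.97, SE 0.15, adjusted p = 0.00248), both the smallest p among the members, and both calls were kept without any 1 heart. The other probe sets of the same gene did not follow it. At 4 weeks they lay between -0.11 and 0.28, and with Akt on against before AAC between -0.38 and 0.24, and none passed. One of them, 1456256_at on chip 430B, was at 9.90, 9.73 and 9.58 before AAC, at 9.77, 10.07 and 9.94 at 4 weeks and at 9.50, 9.28 and 9.30 with Akt on, a difference of -0.56 from the 4-week hearts (adjusted p = 0.0581). Eif6, which keeps the large subunit apart until it is needed, did not pass in either of its 2 probe sets, at 0.05 and 0.41 at 4 weeks and 0.05 and 0.45 with Akt on. Without replicate 3 with Akt on, the last of these was 0.66 and passed (adjusted p = 0.0351). No probe set of Eif1a, Eif1ad, Eif1ax, Eif1b or Eif5b passed.

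The Eif5a genes, whose proteins help the ribosome past stalling sequences, were tested with 4 probe sets and had no call. Eif5a 1451470_s_at was at 12.73, 12.45 and 12.70 before AAC, at 13.00, 12.94 and 12.91 at 4 weeks, and at 12.75, 12.98 and 12.99 with Akt on. Both later groups lay above the hearts before AAC, by 0.33 and 0.28, which did not pass (adjusted p = 0.121 and 0.129). Under quantile normalization the later difference was 0.42 and passed (adjusted p = 0.0218).

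**Figure D3:**
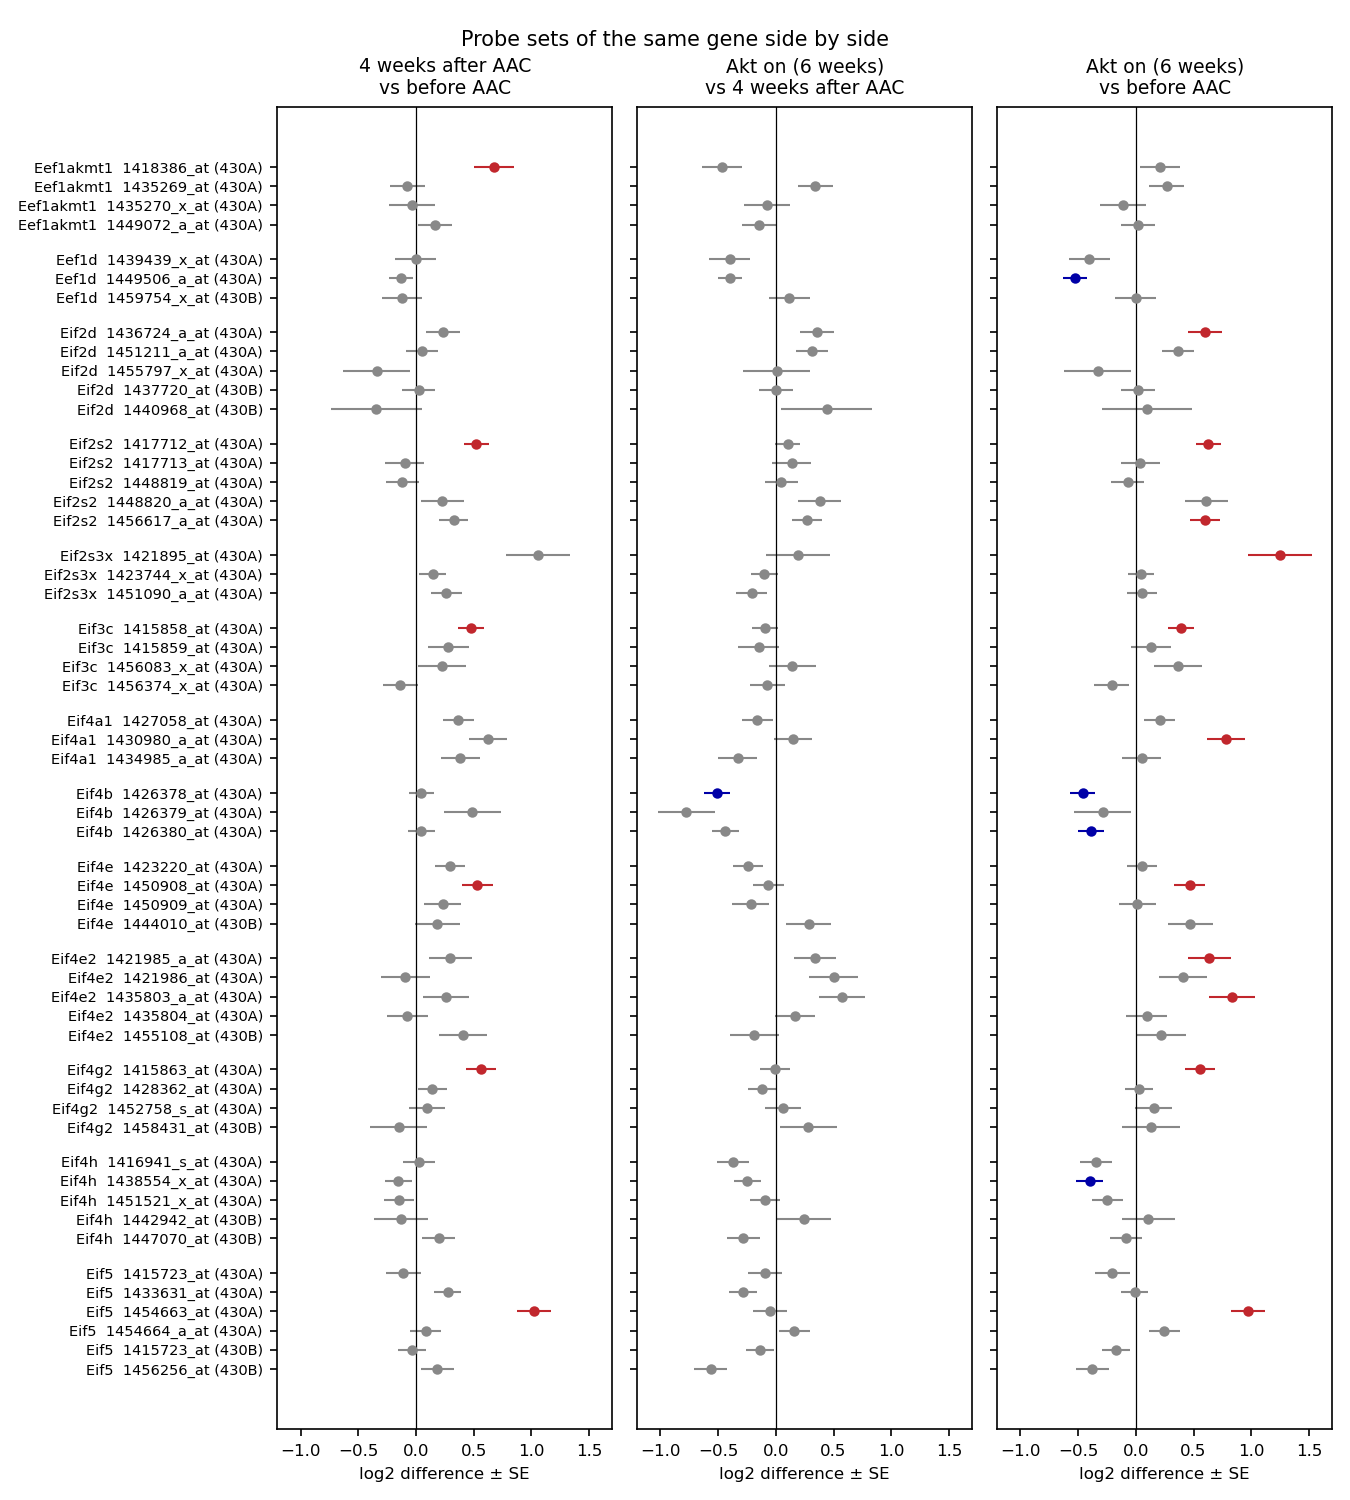
Log2 difference ± SE (limma) of every tested probe set of the genes with a call and at least 3 tested probe sets, by comparison; red rose, blue fell, grey did not pass. Single probe sets stand out from the rest of their gene, as for Eif5 1454663_at at 1.02 and 0.97, while the 3 Eif4b probe sets all lie below 0 in both panels with Akt on.

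The elongation factors were the role with a median below 0 in both comparisons with hearts before AAC, at -0.13 at 4 weeks and -0.25 with Akt on, over 8 probe sets of 6 genes. Under quantile normalization both medians were -0.08. Eef2, which moves the ribosome along the message, was at 13.96, 13.93 and 13.87 before AAC, at 13.58, 13.55 and 13.46 at 4 weeks, and at 13.41, 13.50 and 13.41 with Akt on. The hearts before AAC lay above all 6 later ones. It fell by 0.39 at 4 weeks (SE 0.09, adjusted p = 0.0341) and by 0.48 with Akt on (SE 0.09, adjusted p = 0.00591). Under quantile normalization of each chip the differences were -0.16 (adjusted p = 0.324) and -0.24 (adjusted p = 0.0799), so both calls ended. The 4-week call was also lost without any 1 heart of the 2 groups compared (up to 0.113), and the later call was kept without any 1 heart.

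Eef1a1 and Eef1a2 code for the forms of eEF1A, the second of which is the one typical of adult heart and skeletal muscle. Eef1a1 was at 14.35, 14.43 and 14.29 before AAC, at 13.97, 13.70 and 13.79 at 4 weeks, and at 14.18, 14.08 and 13.55 with Akt on. Hearts before AAC lay above all later hearts, with differences of -0.54 at 4 weeks (SE 0.15, adjusted p = 0.061), the most negative of any member in that comparison, and -0.42 with Akt on (adjusted p = 0.084), neither of which passed. The first passed without replicate 1 or 3 with Akt on (adjusted p = 0.0371 and 0.0223) and the second without replicate 1 (0.0315). Under quantile normalization they were -0.25 and -0.13. Eef1a2 was at 14.53, 14.29 and 14.37, then at 14.21, 14.27 and 14.10, then at 14.15, 14.41 and 14.36. Its groups with Akt on and before AAC overlapped, and its differences of -0.20 at 4 weeks and -0.09 with Akt on did not pass (adjusted p = 0.282 and 0.633). Under quantile normalization both turned, to 0.11 and 0.19 (adjusted p = 0.488 and 0.15).

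The subunits of the factor that reloads eEF1A are coded by Eef1b2, Eef1d and Eef1g. Of Eef1d, probe set 1449506_a_at was at 11.83, 11.90 and 11.79 before AAC, at 11.75, 11.68 and 11.69 at 4 weeks, and at 11.36, 11.37 and 11.20 with Akt on. The 3 groups did not overlap and each lay below the one before. It fell by 0.53 with Akt on against before AAC (SE 0.11, adjusted p = 0.00863), a call kept without any 1 heart, and differed by -0.40 from 4 weeks (adjusted p = 0.0764). The other 2 probe sets of the gene were at -0.40 and 0.00 with Akt on against before AAC, and neither passed. Eef1b2 lay between -0.23 and 0.20 in the 3 comparisons. Eef1e1, named for its likeness to these subunits and known as a part of the complex of aminoacyl-tRNA synthetases, went the other way. It was at 8.67, 8.98 and 8.43 before AAC, at 9.28, 10.02 and 9.68 at 4 weeks, and at 9.37, 10.05 and 9.88 with Akt on. It rose 1.96-fold at 4 weeks (0.97, SE 0.23, adjusted p = 0.0355) and 2.11-fold with Akt on against before AAC (1.07, SE 0.23, adjusted p = 0.0103). The first call was lost without any 1 of the hearts before AAC or replicate 2 or 3 at 4 weeks (up to 0.131), and the second was kept without any 1 heart.

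Modifiers of the elongation factors were tested with 9 probe sets of 4 genes. Eef1akmt1, which codes for a methyltransferase of eEF1A, had 1 of 4 probe sets that rose at 4 weeks: 1418386_at was at 8.84, 8.52 and 8.95 before AAC, at 9.40, 9.50 and 9.43 at 4 weeks, and at 8.65, 9.15 and 9.14 with Akt on. The 4-week hearts were above all others, by 0.68 over those before AAC (SE 0.17, adjusted p = 0.0459). That call was kept only without replicate 1 or 2 with Akt on (up to 0.153), and the other 3 probe sets of the gene lay between -0.08 and 0.17. Under quantile normalization the 4-week difference of 1418386_at was 0.66 and did not pass (adjusted p = 0.0635). Eef2k codes for the kinase that inactivates eEF2. Its probe set 1449013_at was at 8.78, 8.69 and 8.86 before AAC, at 8.50, 8.63 and 8.93 at 4 weeks, and at 8.38, 8.34 and 8.27 with Akt on, where all 3 hearts were below the other 6. Its difference from hearts before AAC was -0.45 (SE 0.15, adjusted p = 0.07), that of 1437829_s_at was also -0.45 (adjusted p = 0.125), and the third probe set was at 0.17. None of them passed, although 1449013_at did with replicates 1 and 3 of the 4-week group averaged (adjusted p = 0.0474).

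The probe sets of a gene often disagreed. At 4 weeks 9 genes had a call, 6 of them with more than 1 tested probe set, and in 5 of those 6 the probe sets lay on both sides of 0. With Akt on against before AAC 17 genes had a call, 12 of them with more than 1 tested probe set, and in 5 of the 12 the probe sets lay on both sides of 0. No gene had calls in both directions within a comparison. With 1 probe set for each gene, 5 genes passed at 4 weeks and 11 with Akt on against before AAC.

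Taken heart by heart, the shift of the members as a whole was small. The median deviation of the 123 probe sets from their mean over the 9 hearts was 0.02, -0.11 and -0.03 in replicates 1, 2 and 3 before AAC, 0.07, 0.03 and 0.06 at 4 weeks, and -0.03, 0.07 and 0.06 with Akt on. The 3 hearts at 4 weeks were above the 3 before AAC, while the hearts with Akt on overlapped both groups. Within groups the members varied less than other probe sets, with a median SD of 0.17 against 0.24 over all probe sets tested.

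**Figure D4:**
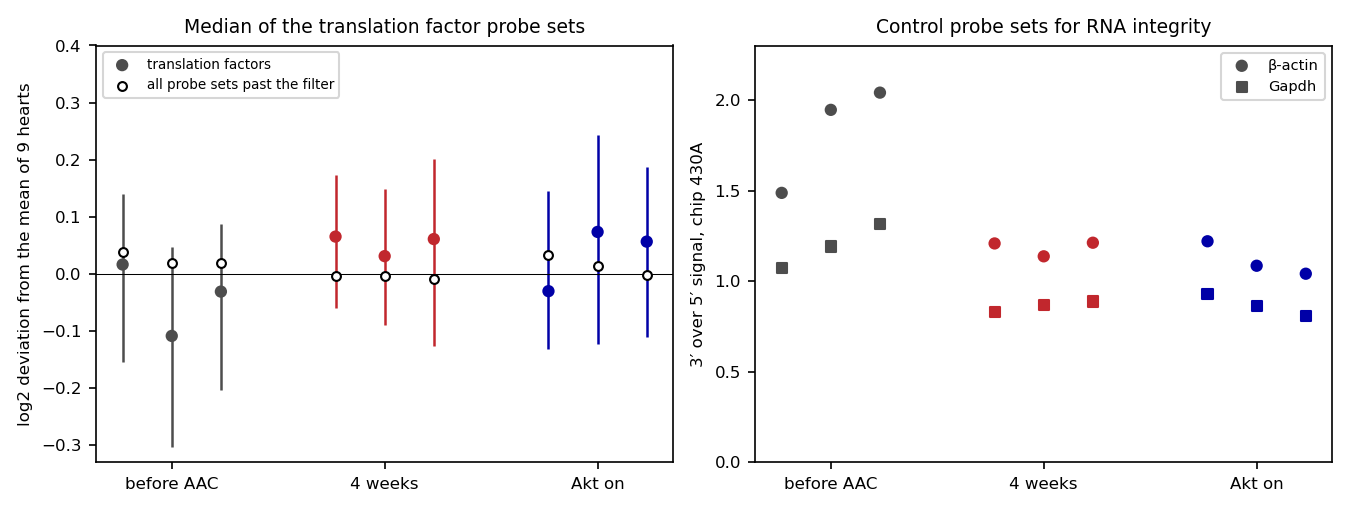
Left, median (filled points) and middle 50% (lines) of the deviations of the 123 member probe sets from their mean over 9 hearts, 1 point per heart, with the median of all tested probe sets as open points; right, ratio of 3′ to 5′ control signal in the same hearts on chip 430A. The hearts before AAC have member medians of -0.11 to 0.02 and β-actin ratios of 1.49 to 2.04, and the later hearts medians of -0.03 to 0.07 and β-actin ratios of 1.04 to 1.22.

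Genes that work with these factors but do not carry their names were read from a list of 44 genes, of which 41 were tested with 67 probe sets. At 4 weeks 3 probe sets rose and 1 fell, with Akt on against 4 weeks 1 rose and none fell (4 lower had an unadjusted p under 0.05), and with Akt on against before AAC 5 rose and 2 fell. These are 5.97%, 1.49% and 10.4% of the 67, beside 4.43%, 2.54% and 13.4% of all probe sets tested. The median differences of the 67 were 0.15, -0.03 and 0.13 in that order. The 3 rises at 4 weeks were all in the genes of termination and recycling. Gspt1, which codes for the release factor eRF3a, rose in both of its tested probe sets: 1452168_x_at was at 8.54, 8.56 and 8.43 before AAC, at 9.65, 9.68 and 9.45 at 4 weeks, and at 9.35, 9.74 and 9.84 with Akt on. Its rise was 1.08 at 4 weeks (SE 0.15, adjusted p = 0.0075) and 1.14 with Akt on (SE 0.15, adjusted p = 0.00151), and that of 1426736_at 0.84 (adjusted p = 0.0414) and 1.06 (adjusted p = 0.00679). The ending x of 1452168_x_at marks probes that can also match other transcripts. Etf1, which codes for the release factor eRF1, rose by 0.82 (adjusted p = 0.049) and 0.88 (adjusted p = 0.0189) in 1451208_at. Of the 13 tested probe sets of termination and recycling, only these 3 passed in each of the 2 comparisons, so no other tested probe set of Etf1 did. Etf1 lies outside the rule for named genes and was chosen after its values were seen. The calls of 1452168_x_at and the later call of 1426736_at were kept without any 1 heart. The 4-week call of 1426736_at was lost without replicate 2 or 3 before AAC or any 1 of the 4-week hearts (up to 0.148). Etf1 lost its 4-week call without any 1 heart of the groups compared (up to 0.157) and its later call without replicate 2 or 3 before AAC or replicate 3 with Akt on (up to 0.0756).

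In the mTOR arm of the list, Mtor itself fell at 4 weeks in 1 probe set: 1436267_a_at was at 9.04, 8.98 and 9.08 before AAC, at 8.38, 8.33 and 8.38 at 4 weeks, and at 8.70, 8.62 and 8.74 with Akt on. The 3 groups did not overlap, with the hearts with Akt on between the other groups. The fall was 0.66 (SE 0.13, adjusted p = 0.0194), and the differences of 0.32 with Akt on against 4 weeks and -0.34 against before AAC did not pass (adjusted p = 0.217 and 0.0992). The fall was lost without any 1 of the hearts before AAC or replicate 1 or 2 at 4 weeks (up to 0.0807). The other 14 probe sets tested in this arm, of Mtor or other genes, did not pass at 4 weeks. Larp1, which codes for a protein that binds messages with a pyrimidine run at the cap, was at 10.67, 10.54 and 10.55 before AAC, at 10.36, 10.18 and 10.27 at 4 weeks, and at 9.95, 10.03 and 10.02 with Akt on, and fell by 0.59 with Akt on against before AAC (SE 0.12, adjusted p = 0.00811), a call kept without any 1 heart. Eif4ebp1, the best-known inhibitor of eIF4E, did not pass in any of its 3 probe sets, with differences of -0.05, -0.63 and 0.34 at 4 weeks, -0.27, -0.06 and -0.40 with Akt on against 4 weeks, and -0.32, -0.69 and -0.06 with Akt on against before AAC. Without replicate 1 with Akt on, the second of the last 3 was -0.93 and passed (adjusted p = 0.0264).

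The single rise with Akt on against 4 weeks was in Gfm2, which codes for a mitochondrial factor of ribosome recycling, by 0.76 in 1426591_at (SE 0.18, adjusted p = 0.0466), from 7.32, 7.34 and 7.17 to 8.22, 7.93 and 7.99. Hearts before AAC, at 7.83, 7.68 and 7.50, lay between. The call was lost without any 1 of the 9 hearts (up to 0.147). The other calls with Akt on against before AAC, named after their values were seen, were rises of Pabpc4 by 0.41 (adjusted p = 0.0322) and Mtif3 by 0.69 (adjusted p = 0.049) and a fall of the stress gene Ddit3 by 0.72 (adjusted p = 0.0193). Each was a call of 1 probe set, and no other tested probe set of these genes passed. Pabpc4 lost its call without replicate 2 or 3 of either group (up to 0.121), and Ddit3 without replicate 1 or 3 before AAC or replicate 3 with Akt on (up to 0.0741). Mtif3 kept its call only without replicate 2 before AAC or replicate 2 with Akt on (up to 0.178).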

How the data were processed

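Whole-heart total RNA of 9 samples was hybridized to chips 430A and 430B, 18 arrays in all. The authors deposited 1 intensity for each probe set, computed with MAS5 per the submitters' processing notes; the version, target and detection calls are not given in the sources used here. The deposited intensities had a trimmed mean of 500.19 to 500.22 on each 430A array and 122.51 on each 430B array. Each array was brought to its chip's common trimmed mean (2% off each end), and log2(signal + 32) was taken, so the pseudocount weighs more on 430B. Of 45265 probe sets, 128 controls were left out, and the 60% with the highest mean over the 9 hearts on each chip were kept, 27083 in all. Symbols came from the platform annotation, which gives 1 symbol to 35041 probe sets, several to 936 and none to 9160.

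In R 4.3.3 with limma 3.58.1, the 3 group means were fitted to each chip (lmFit, eBayes with a trend), and the 3 contrasts were tested two-sided, with Benjamini-Hochberg adjustment over both chips and a threshold of 0.05. The code was tested on simulated data. The members, lists and tests were chosen with earlier results of these data known, and lists of related genes and markers are not independent evidence. Named were all members that passed (up to 20 in a comparison), the largest rise and fall in each, all tested probe sets of Eif4e, Eif4a1, Eif4a2, Eif2b5, Eif3a, Eif5a, Eif6, Eif2ak1 to Eif2ak4, Eef1a1, Eef1a2, Eef2 and Eef2k, up to 3 related probe sets that passed in each, and Eif4ebp1. Eif4g1 and Eif2s1 were also to be named, but no member probe set carried their symbols, so they were not measured here. Summed marker signals use chip 430A. Over 18 pairs of same-numbered hearts, the correlation of deviations from group means was -0.239 to 0.143, with 1 over 0.1, so the numbers do not pair the hearts. Alternatives covered scaling, pseudocount, filter, variance trend, samples, block, covariate and single hearts. Sequences are RefSeq's for GRCm38.p6.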

Additional observations from a re-analysis of the deposited data

How the results depend on the processing

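Under 22 alternatives, 9 of which leave out 1 heart each, no named value that passed changed sign, and the median differences of the 123 probe sets moved by less than the spread between hearts, though by over 1.5 times without single hearts, as given with each comparison. The counts of probe sets that passed moved more. Under quantile normalization 6 members rose and 0 fell at 4 weeks against before AAC, with 3.73% of all probe sets passing. At 4 weeks against before AAC, 9 members passed, and 4 did with no filter, 2 with eBayes without a trend, 3 with replicates 1 and 3 of the 4-week group averaged, 5 with the atrial marker score as a covariate and 5 with 1 probe set for each gene (1.36%, 2.76%, 1.84%, 3.84% and 4.56% of all probe sets in those settings, beside 4.43%); leaving out 1 heart gave 1 to 13. With Akt on against 4 weeks, 2 passed, and 1 did under quantile normalization or no filter, and 0 by limma without a trend, with only the 2 groups compared or with the 4-week replicates averaged (23, 19 and 20 at an unadjusted p under 0.05), while 2.29%, 0.986%, 1.62%, 0.967% and 1.37% of all probe sets did, beside 2.54%; leaving out 1 heart gave 0 to 1. With Akt on against before AAC, 20 passed, 11 with 1 probe set for each gene (14.6% of all, beside 13.4%) and 8 to 20 without 1 heart. Fewer probe sets tested or fewer hearts are part of some of these settings; otherwise the cause was not tested. The replicate numbers do not pair the hearts, and with them as a block 3 members passed at 4 weeks and 0 by limma with Akt on against 4 weeks (22 at an unadjusted p under 0.05; 2.07% and 1.59% of all probe sets passed), and of related genes 2 and 0 (7 at an unadjusted p under 0.05). All counts for the related genes are of probe sets. At 4 weeks 4 of them passed, and 2 did with averaged replicates, the atrial covariate or no trend. The count was 1 with 1 probe set for each gene and 1 to 4 without 1 heart. With Akt on against 4 weeks 1 passed, and 0 by limma under quantile normalization, no filter, the 40% filter, 2 groups only, averaged replicates, the atrial covariate or 1 probe set for each gene (4 to 11 at an unadjusted p under 0.05) and 0 without any 1 heart; against before AAC 7 passed, and 3 to 11 without 1 heart. Eef1a1 passed at 4 weeks with the 40% filter (adjusted p = 0.0494), with only the 2 groups compared (0.0155) and with adjustment within each chip (0.0377). Eif2s3x did so under quantile normalization (0.0489), with 2 groups (0.0261) and within each chip (0.0319), Eif4a1 with the 40% filter (0.0439) and within each chip (0.0324), and Eif2b1 within each chip (0.0488).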

Other observations

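The 28 member probe sets below the filter had mean signals of 6.15 to 121 and were not tested. The brightest of them belonged to Eif1a, Eif3a and Eif2s2. Eif3a 1416661_at had group means of 6.55 before AAC, 7.51 at 4 weeks and 7.24 with Akt on, and Eif3l 1437948_x_at of 7.46, 6.49 and 6.49; both were chosen after their values were seen.

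Eif5 1415723_at is on both chips and gives a second reading of the same RNA. On 430A it was at 11.46, 11.48 and 11.47 before AAC, at 11.21, 11.57 and 11.29 at 4 weeks, and at 11.42, 11.42 and 10.95 with Akt on, and on 430B at 11.55, 11.56 and 11.51, then 11.38, 11.64 and 11.50, then 11.37, 11.34 and 11.39. It passed on neither chip, and the readings of replicate 3 with Akt on differed most between the chips.

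Among the related genes below the filter, Hbs1l 1453604_a_at, of a factor that frees stalled ribosomes, was at 5.50, 5.83 and 6.00 before AAC, at 7.38, 7.96 and 7.57 at 4 weeks, and at 6.70, 8.01 and 7.78 with Akt on. It was not tested and was chosen after its values were seen.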
